A study of Caenorhabditis elegans with 18 samples.

Results

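The comparison described here asks whether loss of the transcription factor gene *ceh-14* changes the mRNA of each gene by the same factor in animals that have and in animals that lack the RNA binding protein gene *fust-1*. It uses 12 of the 18 libraries of the series, 3 each of wild type (N2), *ceh-14*, *fust-1* and *fust-1; ceh-14*, and 16862 of the 46726 genes in the count tables had enough counts to be tested. All animals were *C. elegans* synchronized at the fourth larval stage (L4), just before adulthood, and each library is poly(A) RNA of whole animals. The single mutants carried *fust-1(csb21)*, a deletion with a *myo-2::GFP* marker in the locus, or *ceh-14(ch3)*, a deletion obtained from the stock center, and the double mutants were made by crossing the single mutants. Wild type carried neither deletion and no marker. Each genotype was 1 strain, so other sequence differences that a strain carries cannot be told apart from loss of the named gene. The replicates are called A, B and C and were separate RNA extractions, with no statement of what a letter shares, so p-values measure only the spread between these libraries. The remaining 6 libraries were of *tdp-1*, a deletion strain with a *myo-3::GFP* marker (*csb38*), and *tdp-1; ceh-14*. They did not enter the test and are used for values of the *ceh-14* effect from separate libraries. Both double mutants came from crosses with a *ceh-14* mutant, so their strain backgrounds may be shared in part.

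CEH-14 is a LIM homeobox protein that binds DNA and sets the identity of several sensory neurons and interneurons, and it is also expressed in the spermatheca, the chamber that stores sperm. FUST-1 is an RNA binding protein of the nucleus that acts on splicing and other steps of RNA processing. In genetics, an interaction is the departure of a double mutant from the sum of its single mutants. Here it is the log2 fold change of *fust-1; ceh-14* against *fust-1* minus the log2 fold change of *ceh-14* against wild type, so 0 means that both losses add on the log2 scale and a negative value means that the double mutant lies below that sum. A gene was called where the edgeR quasi-likelihood test gave a p under 0.05 after Benjamini-Hochberg adjustment over the 16862 genes. Shapes of departure have names of long use: a gene is buffered where a single mutant differs from wild type and the double mutant does not, reversed where the double mutant differs the opposite way, and synthetic where only the double mutant differs.

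The libraries held 19556372 to 119814176 counts in genes (median 44438050). The mutated genes were low in the libraries labelled for their loss, with interactions near 0. The fit called *fust-1* for its own loss but did not call *ceh-14*. The *ceh-14* change was -1.60 with *fust-1* present (edgeR adjusted p = 0.132) and -1.55 without it (edgeR adjusted p = 0.150). *fust-1* mRNA stood at 157, 144 and 167 CPM (counts scaled to a common library total) in wild type, 51.4, 35.5 and 38.1 in *fust-1* and 52.0, 49.7 and 41.5 in *fust-1; ceh-14* (interaction 0.20 ± 0.23, as value ± standard error, with an adjusted p of 1). *ceh-14* mRNA stood at 5.54, 5.86 and 5.22 CPM in wild type, 1.46, 1.89 and 2.11 in *ceh-14*, 6.82, 6.93 and 2.67 in *fust-1* and 2.0, 1.84 and 1.62 in the double mutant (interaction 0.05 ± 0.46, with an adjusted p of 1), with *fust-1* replicate C the nearest to the *ceh-14* libraries. The libraries also differed in ways that genotype did not set. The pharynx muscle genes *myo-1*, *myo-2* and *tnc-2* summed to 219 to 305 CPM in the A libraries and to 33.6 to 85.3 CPM in B and C. Of these sums *tnc-2* made up 30.1 CPM at most. The yolk protein genes also had their highest sum in replicate A of each genotype, such as 54067 against 19924 and 28823 CPM in wild type. The molting gene *mlt-10* ranged from 1.62 to 24.1 CPM over the 12 libraries, and the male genes *lov-1* and *pkd-2* were at or near 0 (0 to 0.130 and 0.0334 to 0.217 CPM). *fust-1* replicate C and *fust-1; ceh-14* replicate B lay farthest out on the first principal component, at 29.4 and 34.2. Wild type replicate A was nearly as far out on the other side, at -29.3. In whole animals, fewer cells of a type and less RNA per cell cannot be told apart.

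Few departures from additivity were called. Of 16862 genes, 4 were called (0.0237%), and all 4 were negative: *endu-1*, *haf-6*, *C14A11.9* and the pseudogene WBGene00023391. At an unadjusted p under 0.05 there were 308 genes (1.83%), 166 positive (0.984%) and 142 negative (0.842%), fewer than 1 in 20. That number depended on the fit. It was 581 of 16862 where the replicate letter was also fitted. With 1 library left out it ran from 211 (without *fust-1; ceh-14* replicate C) to 787 (without *fust-1* replicate A). The median interaction over all genes tested was -0.02, 964 genes (5.72%) had an absolute interaction over 1, and the median standard error was 0.404, so for most genes only large departures could be called with 3 libraries per genotype. DESeq2 called 12 of 21486 genes (0.0559%), 2 positive (0.00931%) and 10 negative (0.0465%), and these included the 4 above.

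The gene with the smallest p was *endu-1*, which encodes a member of the EndoU family of endoribonucleases, enzymes that cut RNA at uridines. It lies on chromosome I (WBcel235, I:9745967-9747923, minus strand). In wild type it stood at 1.93, 3.48 and 2.74 CPM. In *ceh-14* it stood at 23.2, 26.7 and 26.8 CPM, in *fust-1* at 27.6, 31.2 and 50.2 CPM, and in *fust-1; ceh-14* at 23.5, 23.6 and 20.3 CPM. The 3 wild-type libraries were low and all 9 mutant libraries were high, with no overlap between them, while the *ceh-14* and double mutant libraries overlapped. Against wild type the log2 fold changes were 3.25 for *ceh-14*, 3.74 for *fust-1* and 3.10 for the double mutant, where the sum of the single mutants would have been far higher. The interaction was -3.88 (standard error 0.36, edgeR adjusted p = 0.00335). In the 6 other libraries *endu-1* was at 28.3 to 44.5 CPM, so all 15 mutant libraries of the series were above wild type and the low level was seen in the wild-type strain alone. The *tdp-1* and *tdp-1; ceh-14* libraries did not separate (log2 fold change 0.24, standard error 0.20, adjusted p = 0.475). The last 38 bases of *endu-1* overlap *K02A11.2* on the other strand, which averaged 1.11 CPM and had an interaction of -0.52 (adjusted p = 1).

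*haf-6* was called as a buffered gene. It encodes a half-molecule ABC transporter that worms need for efficient RNA interference, and it lies near the left end of chromosome I (I:1162880-1175809, minus strand). Wild type stood at 8.48, 8.35 and 9.35 CPM and *ceh-14* at 8.28, 8.10 and 10.8 CPM. *fust-1* stood at 37.4, 38.0 and 50.2 CPM, and *fust-1; ceh-14* at 8.57, 8.70 and 8.71 CPM. The *fust-1* libraries were high and apart from the other 9, and the double mutant fell within the range of wild type. On the log2 scale *fust-1* was 2.25 above wild type, *ceh-14* 0.05 and the double mutant 0.04, and the interaction was -2.27 (standard error 0.24, edgeR adjusted p = 0.00664). Loss of *ceh-14* changed *haf-6* by 0.05 with *fust-1* present and by -2.22 without it (adjusted p = 0.000143 for the second), which is about the size of the rise on loss of *fust-1*.

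The libraries of the *tdp-1* background, none of which entered the interaction, gave *haf-6* almost the same values. It stood at 37.1, 37.1 and 41.3 CPM in *tdp-1* and at 8.38, 8.74 and 7.56 CPM in *tdp-1; ceh-14*. The *tdp-1* libraries were as high as those of *fust-1*, and both double mutants were at the wild-type level. The fall from *tdp-1* to *tdp-1; ceh-14* was -2.20 (standard error 0.15, adjusted p = 0.00205 over 16849 genes in edgeR, where 619 genes, 3.67%, were called). *haf-6* shares 44 bases at its end with *Y48G8AL.7* on the opposite strand, which averaged 15.8 CPM and had an interaction of -0.16 (adjusted p = 1).

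WBGene00023391 had the most negative interaction of the 4. It is a pseudogene of 72 bases at the left end of the X chromosome (X:86887-86958, plus strand) that lies inside a longer pseudogene on the other strand, WBGene00022205 (X:84041-94978). Wild type had 1 count in all, in replicate A, against 267 counts in *ceh-14*, 174 in *fust-1* and 121 in the double mutant. In CPM the mutant libraries were at 1.4, 1.4 and 1.52 in *ceh-14*, 0.669, 0.662 and 1.82 in *fust-1* and 0.826, 1.14 and 1.4 in the double mutant. As with *endu-1*, wild type stood apart from each mutant, and the 3 mutants overlapped one another. The *tdp-1* libraries averaged 0.736 CPM and those of *tdp-1; ceh-14* 1.42 CPM, also above wild type. Relative to wild type the ratio of counts was 240 in *ceh-14* (95% counting interval 42.7 to 9504), 190 in *fust-1* (33.6 to 7533) and 201 in the double mutant (35.4 to 7999), where the intervals cover counting error only. The fitted interaction was -7.29 (standard error 0.83, adjusted p = 0.0106), a value that depends on how the fit treats the near absence of counts in wild type. Leaving out 1 wild-type library ended the call each time (adjusted p = 0.223 without replicate A, 0.0520 without B and 0.0513 without C). The host pseudogene WBGene00022205 stood at 6.58, 6.80 and 5.47 CPM in wild type, 15.2, 15.2 and 13.6 in *ceh-14*, 9.13, 8.42 and 9.16 in *fust-1* and 16.8, 19.3 and 15.1 in the double mutant. It was higher in every library that lacked *ceh-14* than in every library that had it, and its interaction was -0.23 (adjusted p = 1). Where counting takes no account of strand, reads of the pair cannot be told apart, and the strand setting of the counting was not given in the sources used here.

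*C14A11.9*, a protein coding gene on the X chromosome without a named function (X:2808054-2809637, minus strand), was the one synthetic gene among those called. Wild type stood at 11.9, 10.5 and 12.5 CPM, *ceh-14* at 13.4, 13.5 and 12.2, and *fust-1* at 10.7, 9.33 and 7.96. The double mutant stood at 2.74, 2.21 and 2.65 CPM. Only the double mutant was apart from wild type, and it lay below all 9 other libraries. Against wild type the log2 fold change was 0.17 in *ceh-14*, -0.32 in *fust-1* and -2.15 in *fust-1; ceh-14*. The interaction was -2.0 (standard error 0.25, edgeR adjusted p = 0.0233). In the *tdp-1* background no such loss was measured: *tdp-1* averaged 12.2 CPM and *tdp-1; ceh-14* 12.9 CPM (0.10, standard error 0.15, adjusted p = 0.685). The call was close to the threshold, and leaving out any one of 10 of the 12 libraries ended it. Over all 12 of these fits the interaction ran from -2.12 to -1.87 and the edgeR adjusted p from 0.00577 to 0.148. *C14A11.9* and the gene *ceh-14* are both on the X chromosome, 4718132 bases apart, and the distance from *ceh-14* to WBGene00023391 is 7440811 bases.

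**Figure D1:**
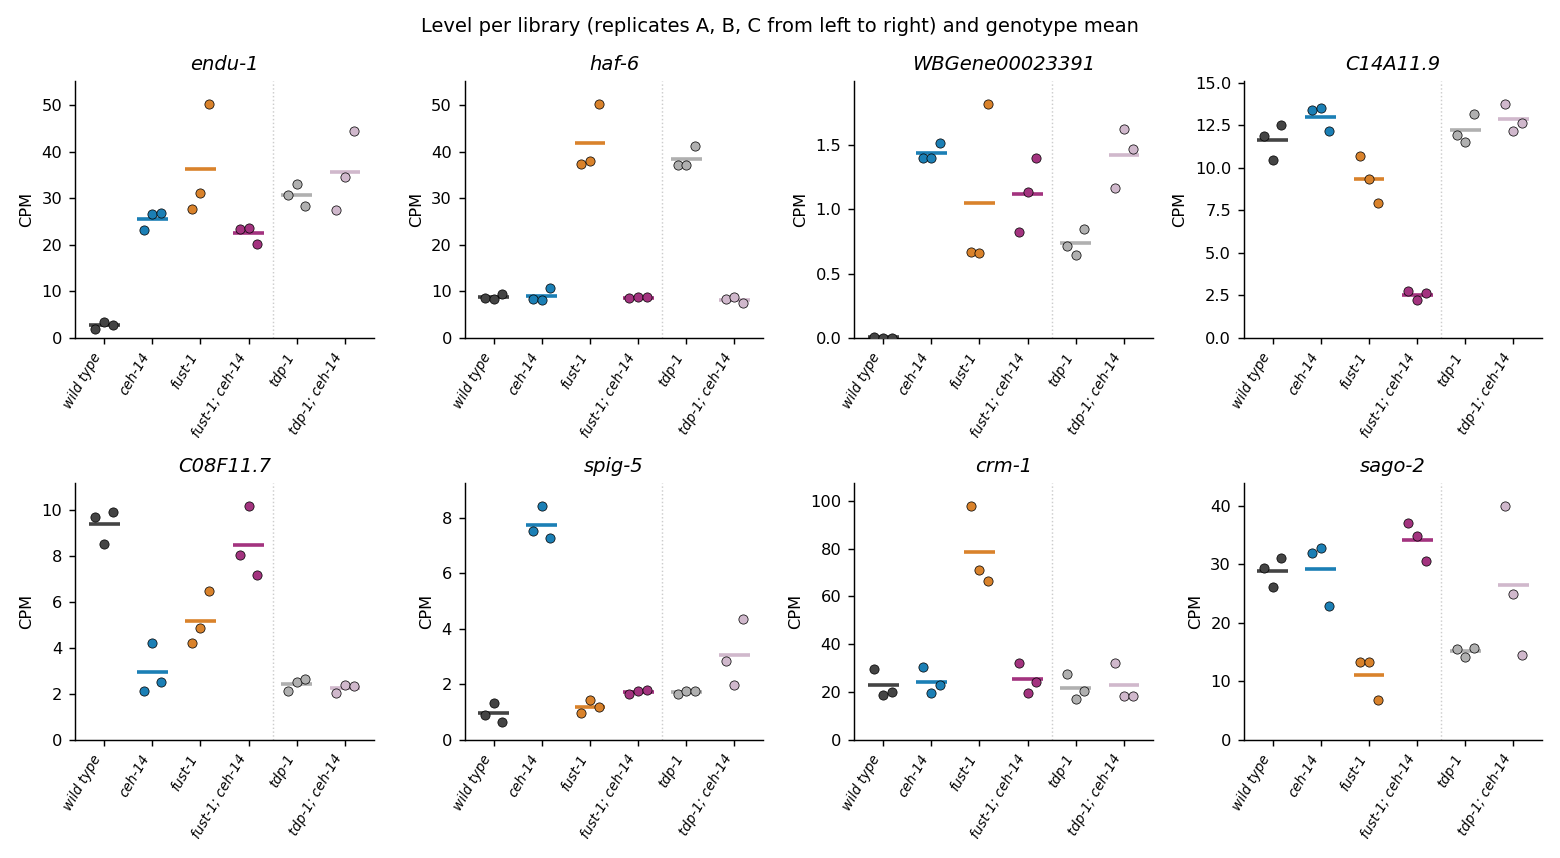
Level in CPM (vertical axis, linear from 0) of the 4 called genes (upper row) and of 4 others with a small interaction p (lower row) in each library, with A, B and C from left to right and a line at the mean of the genotype; the *tdp-1* genotypes right of the dotted line did not enter the test. *haf-6* is at 37.4 to 50.2 CPM in *fust-1* and at 8.57 to 8.71 CPM in the double mutant, and *C14A11.9* is at 2.21 to 2.74 CPM in the double mutant alone.

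Among the 20 genes with the smallest p, given as values, 7 interactions were positive and 13 negative. No gene past the first 4 was called in this fit. The 2 next were *C08F11.7* and *spig-5*, at the same adjusted p of 0.110, and both were called for *ceh-14* loss with *fust-1* present and not without it. *C08F11.7* stood at 9.69, 8.52 and 9.92 CPM in wild type, 2.13, 4.20 and 2.49 in *ceh-14*, 4.19, 4.86 and 6.48 in *fust-1*, and 8.04, 10.2 and 7.17 in the double mutant. The double mutant overlapped wild type and lay above both single mutants, so that *ceh-14* loss gave -1.66 with *fust-1* and 0.76 without it (interaction 2.42, standard error 0.38). The neighboring pseudogene WBGene00014672 (IV:13636560-13636975, minus strand, against IV:13637275-13638666, plus strand, for *C08F11.7*) had the same direction, at 3.82 to 4.87 CPM in wild type, 1.23 to 2.0 in *ceh-14*, 1.80 to 3.96 in *fust-1* and 3.16 to 4.31 in the double mutant (2.16, adjusted p = 0.830). In the *tdp-1* background both were low with and without *ceh-14*, *C08F11.7* at 2.42 and 2.24 CPM on average and WBGene00014672 at 1.16 and 1.24.

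*spig-5*, a short gene of 369 exonic bases on chromosome V (V:14308464-14308877), stood at 0.878, 1.33 and 0.620 CPM in wild type and at 0.951, 1.41 and 1.17 CPM in *fust-1*. It stood at 7.51, 8.41 and 7.27 CPM in *ceh-14* and at 1.65, 1.74 and 1.79 CPM in the double mutant. The *ceh-14* single mutant alone was high, and the double mutant lay a little above wild type and *fust-1*, without overlap. Loss of *ceh-14* changed *spig-5* by 3.02 on the log2 scale with *fust-1* present (adjusted p = 0.000392) and by 0.61 without it (adjusted p = 0.662). The interaction was -2.40 (standard error 0.38). In the *tdp-1* background the change was 0.86 (standard error 0.32, adjusted p = 0.193).

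A *fust-1* difference without a like one in the double mutant was measured for *crm-1* and *sago-2*. In this fit neither the difference of *fust-1* from wild type (edgeR adjusted p = 0.0503 and 0.172) nor the interaction was called. *crm-1* encodes a secreted cysteine-rich protein that promotes BMP signaling and body size in the worm. It stood at 29.5, 18.7 and 19.9 CPM in wild type, 30.3, 19.7 and 23 in *ceh-14*, 97.8, 71.0 and 66.4 in *fust-1*, and 32.1, 19.4 and 24.2 in the double mutant. The *fust-1* libraries were apart from the other 9, and within each genotype replicate A was the highest (interaction -1.69, standard error 0.37, adjusted p = 0.923). Unlike *haf-6*, it averaged 21.5 CPM in *tdp-1*, within the range of wild type. *sago-2* encodes a secondary Argonaute, a protein that carries the small RNAs made during RNA interference. It stood at 29.3, 26.2 and 31.1 CPM in wild type, 31.8, 32.8 and 22.9 in *ceh-14*, 13.2, 13.2 and 6.79 in *fust-1*, and 37.1, 34.9 and 30.6 in the double mutant. Here the *fust-1* libraries were the low ones, again apart from the other 9 (interaction 1.65, standard error 0.36, adjusted p = 0.923). In *tdp-1* it stood at 15.5, 14.2 and 15.7 CPM, and in *tdp-1; ceh-14* at 40.0, 25 and 14.4 CPM, with overlap. All of *sago-2*, 3331 bases, lies within *eme-1* on the opposite strand, which averaged 58.4 CPM and had an interaction of -0.20 (adjusted p = 1). *sago-2* (I:618160-621490) is at the same end of chromosome I as *haf-6* (I:1162880-1175809). *Y71G12B.18*, also among the 20, is at I:1652876-1655459. Whether their place bears on these values was not tested.

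Because *haf-6* and *sago-2* both act in RNA interference, a list of 47 genes of RNA interference and small RNA pathways was drawn up after their values had been seen. Of 46 tested, the only genes called or with an unadjusted p under 0.05 were the 2 around which the list was made (beside 0.0237% and 1.83% of all genes), so these counts say nothing about the list. The median interaction of the 46 was -0.00, with 22 positive, beside -0.02 for all genes tested.

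The other genes of the 20 were mostly low or near the size limit of the sort. Y17D7C.6 and the pseudogene WBGene00045366 lie close together on chromosome V (V:18709810-18711856 and V:18720589-18723771), and both were higher in each single mutant than in wild type and the double mutant. WBGene00045366 stood at 5.09 to 6.15 CPM in wild type, 7.65 to 8.59 in *ceh-14*, 10.4 to 23.9 in *fust-1* and 4.87 to 5.89 in the double mutant (interaction -1.98, adjusted p = 0.743). *Y17D7C.6* never passed 0.811 CPM in these libraries (-4.19, adjusted p = 0.743). *F11A5.13* (-4.08), *F48C1.9* (-3.14), *Y71G12B.18* (3.88) and WBGene00022626 (2.57) were below 1 CPM in all 12 libraries. *pho-6*, of the acid phosphatase family, was at 2.82 to 3.26 CPM in *ceh-14* and at 0.878 to 1.96 CPM elsewhere (-1.48, adjusted p = 1). *C15A11.7* (-1.48), *C27B7.9* (-1.75), WBGene00194705 (1.30) and *Y69A2AR.25* (1.42) complete the 20. Of the 18 with an annotated place, 6 were on chromosome I, 6 on V, 4 on IV and 2 on X.

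Each gene was sorted by its log2 fold changes against wild type in *ceh-14*, *fust-1* and the double mutant, with 1 as the size that counts as a change. The sort uses the values that made the p small, so it describes the genes and tests nothing. Of the 4 called genes, 1 was buffered (*haf-6*), 1 was synthetic (*C14A11.9*), none was reversed, and in 2 (*endu-1* and WBGene00023391) wild type stood apart from all mutants, which differed from it by like amounts. Of the 20, 15 were buffered (6 in *fust-1*, 4 in *ceh-14*, 5 in both single mutants), 3 had wild type apart, 1 was synthetic and 1 was small. Buffered here means a double mutant within 1 of wild type. Its libraries were still apart from wild type for *spig-5* (0.90), *C27B7.9* (-0.61), WBGene00022626 (-0.94), WBGene00194705 (-0.87) and *Y69A2AR.25* (-0.97). For the last 2, *ceh-14* was at -1.07 and -0.98 and *fust-1* at -1.11 and -1.42, so every mutant was lower than wild type. The limit also divided *C27B7.9*, at 1.04 in *fust-1* and sorted as buffered, from *C15A11.7*, at 0.98 in *fust-1* and sorted as small.

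**Figure D2:**
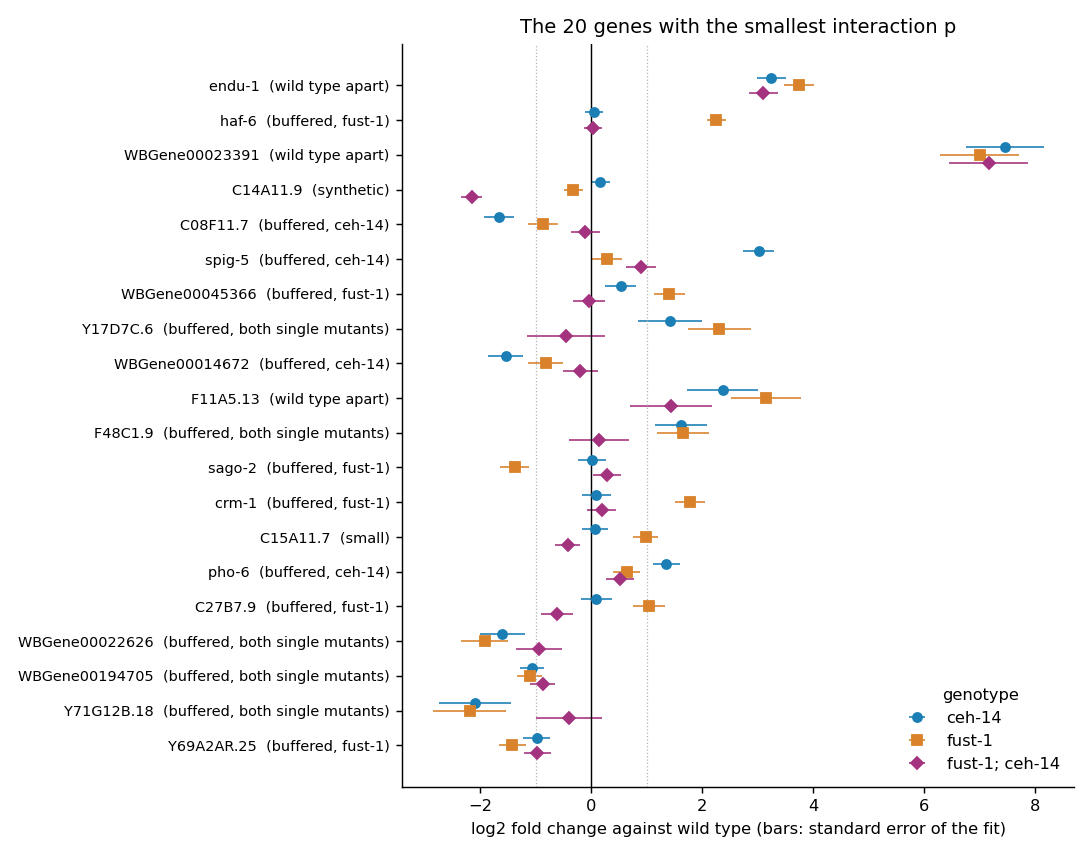
Log2 fold change against wild type (horizontal axis) of *ceh-14*, *fust-1* and *fust-1; ceh-14* for the 20 genes with the smallest interaction p, from the smallest at the top, with bars for the standard error of the fit and dotted lines at the size of 1 used for the sort named in brackets. For *haf-6* only the *fust-1* point, at 2.25, is away from 0, and for *C14A11.9* only the double mutant, at -2.15.

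Among the 308 genes with an unadjusted p under 0.05, 100 were buffered (32.5%, beside 3.06% of all genes tested), 20 had wild type apart (6.49% beside 1.44%), 11 were synthetic (3.57% beside 1.83%), 4 were reversed, 6 were less than additive, 2 were enhanced and 165 were small (53.6% beside 91.5%). Of the 100, 62 were buffered in *fust-1*, 18 in *ceh-14* and 20 in both single mutants. In the 62, *fust-1* was above wild type for 36 and below it for 26. The median absolute log2 fold change of the 62 was 1.30 in *fust-1* and 0.302 in the double mutant, and their median level was 1.66 CPM. Genes buffered in *ceh-14* were more often below wild type in that mutant, 13 against 5. Those buffered in both single mutants were more often below wild type in *fust-1*, 14 against 6. Their median level was low, at 0.298 CPM, and their median absolute log2 fold change in the double mutant was 0.695. The neuropeptide gene *nlp-31*, one of the antimicrobial peptide genes of the epidermis, was among those buffered in *fust-1* (2.33 in *fust-1*, -0.30 in the double mutant, interaction -2.81, standard error 0.73, adjusted p = 1). It stood at 11.4, 11.9 and 55.2 CPM in *fust-1* and at 3.72 to 5.92 CPM in wild type, so that replicate C was far above A and B and all 3 were above wild type. At a size of 0.5 in place of 1 the reversed genes were 30 and the small ones 55, and at 1.5 no gene was reversed and 240 were small.

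The 4 reversed genes were *srw-85* (-4.33), of a chemoreceptor family, *idpp-2* (-3.97), *T28F2.1* (-2.80) and the C-type lectin gene *clec-190* (-4.18), all with an adjusted p of 1. For each, the fitted *fust-1* value was above wild type and that of the double mutant below it. The sort of *clec-190* as reversed rests on a small margin. Its log2 fold change was 1.46 in *fust-1* and -1.42 in *ceh-14*, and the sort compares the double mutant with the larger. Its *fust-1* libraries also overlapped wild type, with replicate C far above A and B. *clec-190* stood at 0.395, 0.340 and 0.516 CPM in wild type and 0.511, 0.773 and 2.12 CPM in *fust-1*. It stood at 0.188, 0.208 and 0.0257 CPM in *ceh-14* and at 0, 0.0669 and 0 CPM in the double mutant. Every library that lacked *ceh-14* was below every library that had it. The double mutant had 2 counts in all, and there were 31 in *ceh-14*, 188 in *fust-1* and 67 in wild type. The ratio of the double mutant to wild type was 0.0496 (95% counting interval 0.00588 to 0.186). In *tdp-1; ceh-14* no library had a count of *clec-190*. The interaction had a standard error of 1.31 and ranged from -7.49 to -3.36 when 1 library was left out. Of the 11 synthetic genes at this looser level, most were lower in the double mutant. *C14A11.9* (-2.15) and WBGene00050975 (-2.12) were farthest below wild type, followed by *C45G9.10* (-1.56) and *catp-3*, a P-type ATPase gene (-1.48). The higher ones were *rgs-10* (1.25), *Y60A9.3* (1.23), *F14F8.8* (1.13) and *F46F2.3* (1.01). Of these, *rgs-10* was synthetic by the limit of 1 alone. It was at 0.98 in *ceh-14* and 0.97 in *fust-1*, with an interaction of -0.70, so both single mutants were raised as well. Apart from *C14A11.9*, the adjusted p of the interaction was 1 for each.

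The next comparison sets the effect of *ceh-14* loss with *fust-1* present beside the effect without it. The 2 effects share no library. With *fust-1* present 24 genes were called (0.142%), 6 up (0.0356%) and 18 down (0.107%), and without it 15 (0.089%), 2 up (0.0119%) and 13 down (0.0771%). Of these, 12 were called in both, 50% of the first list and 80% of the second, all 12 with the same sign (11 down and 1 up), and their median absolute interaction was 0.346. Their interactions ranged from -1.66 to 0.92 with an adjusted p of 1, and 1 of 12 had an unadjusted p under 0.05. Across all genes tested, the 2 effects had a Pearson r of 0.363 and a Spearman rho of 0.385, a description over genes that are not independent replicates.

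The 12 genes called in both backgrounds are described here, chosen for that overlap. Genes with a strong *ceh-14* effect in one background alone, among them *endu-1*, *spig-5* and WBGene00023391, are described above. *K07A1.6* stood at 21, 31.2 and 29.0 CPM in wild type and 24.1, 25.6 and 48.7 in *fust-1*, against 0.209, 0.178 and 0.103 in *ceh-14* and 0.435, 0.167 and 0.493 in the double mutant. The cuticle collagen gene *col-135* stood at 37.1 to 65.0 CPM in wild type and 36 to 89.7 in *fust-1*, against 0.514 to 0.753 in *ceh-14* and 0.493 to 0.569 in the double mutant. Both genes thus fell to under 1 CPM in either setting (*K07A1.6*, -7.31 with and -6.39 without *fust-1*; *col-135*, -6.36 and -6.72). *ule-5*, one of the uterine lumen expressed genes, stood at 320, 315 and 430 CPM in wild type and at 330, 266 and 440 in *fust-1*. It stood at 20.03, 8.41 and 5.76 CPM in *ceh-14* and at 14.6, 11.7 and 15 in the double mutant, an interaction of 0.36 (standard error 0.52). Its neighbors on the X chromosome *Y62H9A.3*, *Y62H9A.4* and *Y62H9A.5* fell as well in both settings (interactions 0.33, 0.45 and -0.03). *Y62H9A.4*, at -1.28 with *fust-1* and -0.84 without it, was the 1 of the 12 with an unadjusted p under 0.05. *D1086.6* stood at 167 to 205 CPM in wild type and 159 to 247 in *fust-1*, against 34.2 to 39.1 in *ceh-14* and 31.4 to 37.8 in the double mutant (-2.36 and -2.42). The 1 shared gene that rose was *nlp-2*, a neuropeptide gene. It stood at 1.79, 1.64 and 1.81 CPM in wild type, 2.41, 1.52 and 1.78 in *fust-1*, 4.87, 7.06 and 4.99 in *ceh-14* and 5.74, 7.32 and 6.04 in the double mutant, so all 6 libraries without *ceh-14* were above the 6 with it (interaction 0.09, standard error 0.33). The other shared genes were *E02H9.7*, *D1086.11*, *ssp-37* and *ZK813.3*, all lower.

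**Figure D3:**
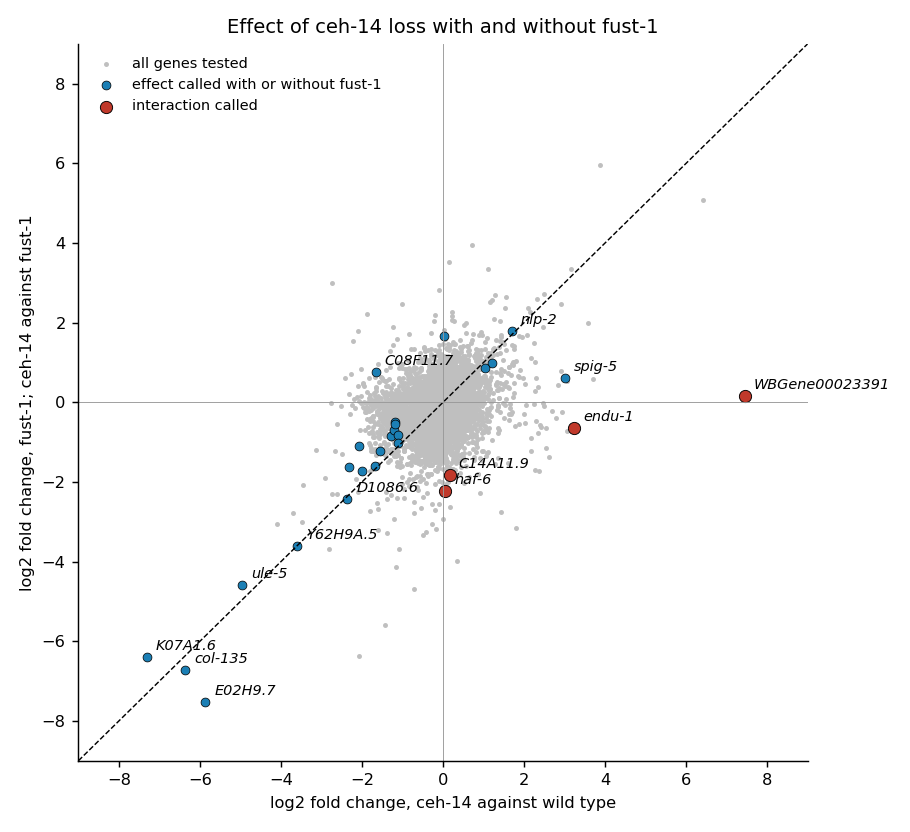
Log2 fold change on loss of *ceh-14* in animals with *fust-1* (horizontal axis) and without it (vertical axis), 1 point for each of the 16862 genes tested; genes on the dashed line have an interaction of 0. *K07A1.6*, *col-135* and *ule-5* lie near the line, whereas *endu-1* (3.25 and -0.64) and *haf-6* (0.05 and -2.22) lie far below it.

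Loss of *fust-1* gave 8 calls with *ceh-14* present (0.0474%) and 6 without it (0.0356%), and 4 genes were called in both: *fust-1* itself, *ctl-1*, *jmjd-3.3* and *wdr-54*. *ctl-1*, a catalase gene with near-identical neighbors among the other catalase genes, had 2 counts in *fust-1* and 2 in the double mutant against 1303 in wild type and 1403 in *ceh-14*. It lies on the chromosome that carries *fust-1*, 7148092 bases away. *jmjd-3.3*, of the family of JmjC histone demethylases, stood at 1.34 to 1.53 CPM in wild type, 1.21 to 1.55 in *ceh-14*, 3.52 to 4.8 in *fust-1* and 4.62 to 5.52 in the double mutant. *wdr-54*, a WD repeat gene, stood at 0.413 to 0.963 and 0.694 to 0.815 CPM with *fust-1* and at 4.56 to 9.44 and 4.48 to 5.22 CPM without it. In these genes the *fust-1* difference was present at a like size with and without *ceh-14* (interactions 0.59 for *ctl-1*, 0.41 for *jmjd-3.3* and -0.45 for *wdr-54*, all with an adjusted p of 1). That sets them beside *haf-6*, where the rise on loss of *fust-1* was 2.25 with *ceh-14* and -0.02 without it.

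A wider set of *ceh-14* responsive genes was taken from libraries that the interaction does not use. Between *tdp-1* and *tdp-1; ceh-14*, 619 of 16849 genes were called (3.67%; 0.849% up and 2.83% down), and 605 of them were among the genes tested here, 142 up and 463 down. Their median change along that direction was 1.81 on the log2 scale in the *tdp-1* background. In the 12 libraries it was 0.756 with *fust-1* present, with the same sign for 571 genes (94.4%), and 0.229 without *fust-1*, with the same sign for 449 (74.2%). The median interaction along the direction of the response was -0.42, and for 472 of the 605 it pointed against the response. Just 1 of the 605 was called (*haf-6*), and 30 had an unadjusted p under 0.05 (4.96%, beside 1.83% of all genes tested). The size of the median rested on single libraries: it was -0.848 without *fust-1* replicate B, -0.256 without *fust-1* replicate C, -0.156 without wild type replicate B and -0.0851 without *fust-1; ceh-14* replicate C. Without *fust-1* replicate B the same sign was seen for 37% of the genes in animals that lack *fust-1*.

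By gene group, 76 of the 605 were cuticle collagens, and 75 of these had fallen in the *tdp-1* background. Their median change was -2.06 there, -1.20 with *fust-1* present and -0.25 without *fust-1*. The 23 hedgehog-related and patched-related genes, a family that is expressed in the epidermis and has roles in molting, had medians of -2.05, -0.80 and 0.04. For 12 molting cycle genes the medians were -2.36, -0.58 and -0.10, and for 11 C-type lectins -1.78, -1.0 and -0.38. Collagen and molting genes are known to cycle with the molt. Libraries of one genotype also differed over the whole set of falling genes. The median over the 463 falling genes of log2 CPM, measured from the mean of the 12 libraries, was 0.60, 1.30 and 0.06 in wild type A, B and C, and -0.30, 0.15 and -0.40 in *ceh-14*. It was -0.18, 0.78 and -0.75 in *fust-1* and -0.52, -0.86 and 0.31 in the double mutant. The genotypes overlapped, and the part of the animals' place in the molt in this result was not tested.

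**Figure D4:**
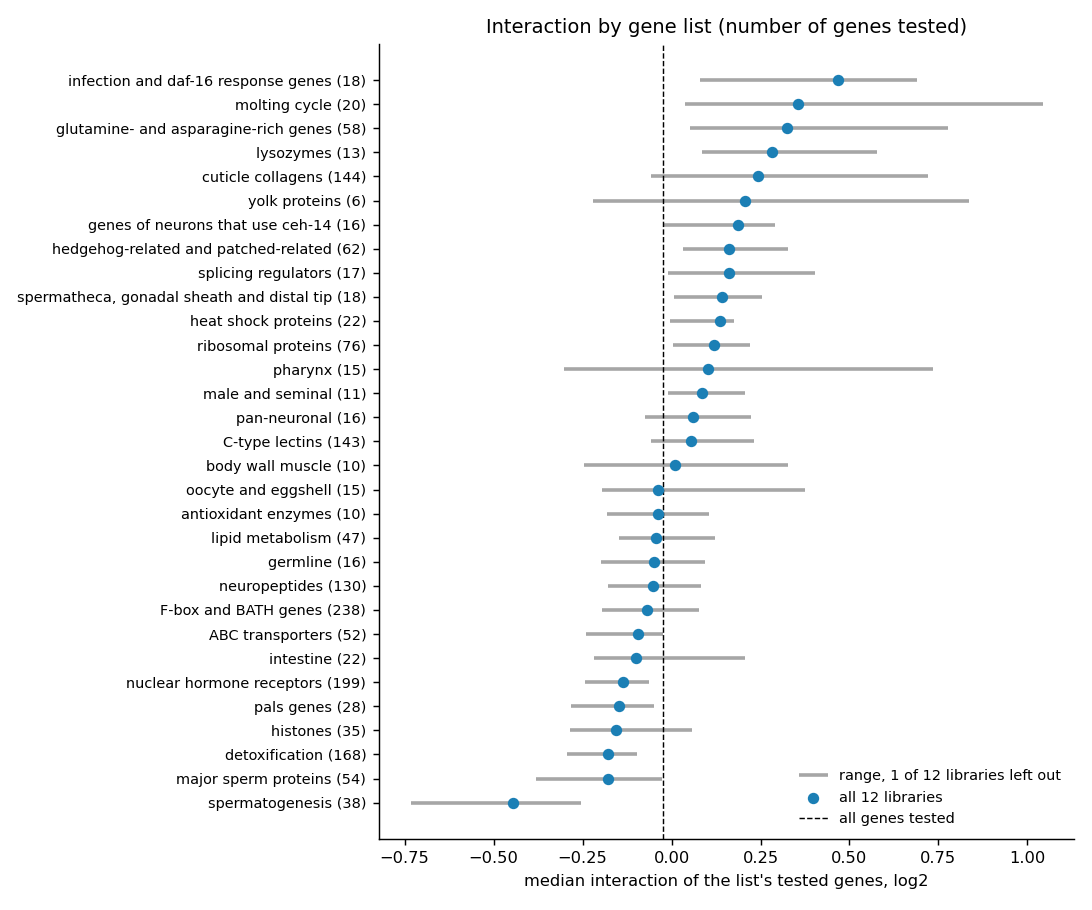
Median interaction in log2 (horizontal axis) of the tested members of each gene list, with the number tested in brackets, a gray bar from the lowest to the highest median when 1 of the 12 libraries is left out, and a dashed line at the median of all genes tested. The spermatogenesis list, at -0.44, lies lowest and stays below the line throughout, whereas the bar of the cuticle collagens, at 0.24, reaches across it.

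Over the gene lists, *haf-6* was the only member of any list that was called, and each list is described by its counts beside those of all genes, of which 7935 of 16862 had a positive interaction. Spermatogenesis genes had the lowest median, -0.44, with 4 of 38 positive. They stood at -0.05 for *ceh-14* loss with *fust-1* and at -0.50 without it. The summed level of the list was 761, 1110 and 869 CPM in wild type and 620, 1019 and 1015 CPM in *ceh-14*. It was 743, 1083 and 1232 CPM in *fust-1* and 659, 802 and 725 CPM in the double mutant. The genotypes overlapped, and the median stayed between -0.733 and -0.253 when 1 library was left out. No member had an unadjusted p under 0.05, and the member with the smallest p was *spe-36*, a gene needed in sperm for fertilization, at 0.966, 1.87 and 1.70 CPM in wild type and 0.696, 0.736 and 1.23 CPM in the double mutant (interaction -1.20, standard error 0.58, adjusted p = 1). The major sperm proteins, the cytoskeletal proteins of worm sperm, had a median of -0.18 with 20 of 54 positive (-0.0264 without wild type replicate A, -0.381 without *ceh-14* replicate A). Their sum was 2038, 3167 and 2601 CPM in wild type and 2090, 2430 and 2240 CPM in the double mutant, with overlap. The list of spermatheca, gonadal sheath and distal tip genes, all of the somatic gonad, had a median of 0.14 with 14 of 18 positive (0.00811 without *fust-1* replicate C), and *lag-2*, the Notch ligand of the distal tip cell, was its 1 member with an unadjusted p under 0.05 (0.83, standard error 0.37, adjusted p = 1).

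Several other lists had positive medians. Molting cycle genes had a median of 0.36 (16 of 20 positive), cuticle collagens of 0.24 (102 of 144) and the glutamine- and asparagine-rich genes, many of which are made in the pharynx at the molt, of 0.33 (53 of 58). Left-out libraries moved these medians to 0.0372 to 1.04, -0.0582 to 0.721 and 0.0516 to 0.776, respectively, lowest without *fust-1; ceh-14* replicate C for the first 2 and without *fust-1* replicate C for the last, and no member of the 3 lists had an unadjusted p under 0.05. The summed level of the molting genes was 236 to 352 CPM in wild type, 252 to 294 in *ceh-14*, 157 to 310 in *fust-1* and 209 to 315 in the double mutant. Replicate C of *fust-1* was the lowest of the 12 in the molting sum, and also in that of the glutamine- and asparagine-rich genes, at 1582 CPM against 2484 to 3374 CPM in the other 11 libraries. The infection and *daf-16* response genes had a median of 0.47 with 14 of 18 positive (0.0789 without *fust-1; ceh-14* replicate A), and *dod-22*, a CUB domain gene of that list, showed how far the libraries spread. It stood at 78.1, 82.8 and 49.5 CPM in wild type, 11.5, 5.76 and 1.98 in *ceh-14*, 35.4, 44.5 and 41.2 in *fust-1* and 19.6, 2.31 and 6.14 in the double mutant. *dod-22* was lower in each library without *ceh-14* than in each library with it, and its interaction was 1.38 with a standard error of 0.94 (adjusted p = 1). Other lists of genes that respond to infection had lower medians: the *pals* genes had a median of -0.15 (11 of 28 positive) and the C-type lectins of 0.05 (76 of 143). The C-type lectin median ran from -0.0575 to 0.232 with 1 library left out. Lysozymes (0.28), yolk proteins (0.21), splicing regulators (0.16) and ribosomal proteins (0.12) also had positive medians. With 1 library left out these ran from 0.0863 to 0.579, -0.220 to 0.835, -0.0113 to 0.402 and 0.0032 to 0.220, respectively. Detoxification genes had a median of -0.18 with 54 of 168 positive. Among them *cyp-13A4* stood at 3.31, 0.469 and 0.746 CPM in *fust-1* and at 0.0176 to 0.591 CPM in the other 9 libraries, with replicate A of *fust-1* far above the rest (interaction -4.95, standard error 1.59, adjusted p = 1). The markers of body wall muscle, intestine, neurons and germline each had an adjusted p of 1.

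Of the 20 genes with the smallest p, 3 were called for *ceh-14* loss in the *tdp-1* background, beside 3.67% of all genes: *haf-6*, WBGene00022626 (-1.82, adjusted p = 0.0476) and *Y71G12B.18* (-2.26, adjusted p = 0.0156). The last 2 went the way they did with *fust-1* present (-1.60 and -2.10) and not the way they did without it (0.97 and 1.79), although both were low, at 2.48 CPM or less on average. By distance, 10 of the 20 were nearer to the *ceh-14* effect measured without *fust-1* and 10 to that measured with it. The *tdp-1* background therefore showed no common side for these genes. It was like the *fust-1* background for *haf-6* and unlike it for *C14A11.9*.

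**Figure D5:**
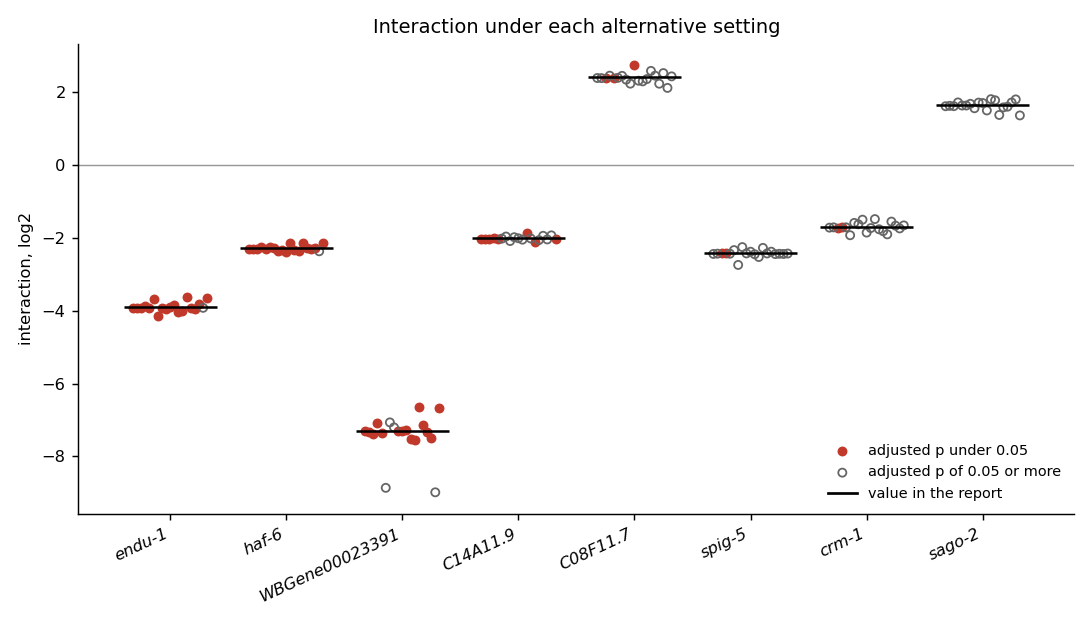
Interaction in log2 (vertical axis) of 8 genes under each of 19 alternative settings of the analysis, filled where the adjusted p was under 0.05 and open where it was not, with a line at the value given in the text. All 8 genes keep their sign; *endu-1* and *haf-6* pass in 18 of 19 settings, WBGene00023391 in 15 and *C14A11.9* in 8.

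The settings of the analysis moved the calls more than the values. *endu-1* and *haf-6* were called in all 17 alternatives planned, which include leaving out each of the 12 libraries, and their interactions stayed within -4.15 to -3.61 and -2.38 to -2.13. WBGene00023391 was called in 14 of 17 and *C14A11.9* in 7 of 17. Leaving out replicate A of all 4 genotypes, the letter with the high pharynx markers, gave no call (616 genes at an unadjusted p under 0.05), with *endu-1* at -3.92 (adjusted p = 0.0857) and *haf-6* at -2.36 (adjusted p = 0.331). Without *fust-1* replicate C and *fust-1; ceh-14* replicate B, the same 4 genes were called.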

How the data were processed

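Total RNA was extracted with Tri reagent from whole L4 animals, and poly(A) libraries were made with NEBNext kits and sequenced as paired reads. The deposited values are whole, unnormalized counts per gene; the authors mapped reads with STAR to WBcel235 and counted with HTSeq, according to the submitters' processing notes. The strand setting was not given in the sources used here. The tallies of unassigned records were left out of library sizes and tests (no gene, 0.461% to 0.738% of records). Gene names and positions came from the WBcel235 annotation.

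Genotype means of the 12 libraries were fitted in R 4.3.3 with edgeR 4.0.16 (limma 3.58.1): filterByExpr, TMM scaling, quasi-likelihood test, Benjamini-Hochberg adjustment over all genes tested, calls at 0.05. Standard errors are the absolute log2 value divided by the square root of F. CPM used TMM-scaled sizes of all 18 libraries. The tests were tried on simulated data. Replicates varied at least 25.8 times as much as counting error alone (chi-square over degrees of freedom), so no library repeated another.

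The genes and lists were chosen with earlier results of these data known. Named genes are the mutated genes, *tdp-1*, *clec-190*, the called genes and the next by p up to 20, those called with a replicate block, and the 2 smallest p of each list. Other genes named for the *ceh-14* and *fust-1* effects, the pattern groups and the RNA interference list were chosen after their values were seen. Lists came from general knowledge. Alternatives were the size factors of DESeq2 (1.42.0), no filter, the DESeq2 test, a replicate block, all 18 libraries, stricter thresholds, other pattern sizes and leaving out each library. Leaving out replicate A, or the 2 libraries farthest out on the first component, was added after seeing the data.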

Additional observations from a re-analysis of the deposited data

Results flagged for a closer look

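The effect of *ceh-14* loss differed between animals with and without *fust-1* for 4 genes, by the interaction term itself in edgeR over 16862 genes. For *endu-1* the difference was -3.88 (adjusted p = 0.00335), with *ceh-14* loss at 3.25 with *fust-1* and -0.64 without it. For *haf-6* it was -2.27 (adjusted p = 0.00664), with 0.05 and -2.22. For WBGene00023391 it was -7.29 (adjusted p = 0.0106), with 7.45 and 0.16 and a single count in wild type. For *C14A11.9* it was -2.0 (adjusted p = 0.0233), with 0.17 and -1.83.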

How the results depend on the processing

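The interaction gave 4 calls with the size factors of DESeq2 and without a filter, 5 with all 18 libraries, 6 with the replicate block (adding *crm-1*, adjusted p = 0.0125, and *spig-5*, 0.0469), 12 with DESeq2, 2 at an adjusted p under 0.01 with an absolute interaction over 1, 0 without replicate A and 2 to 7 when 1 library was left out (2 without wild type A, B or C, 7 without *fust-1* A). *ceh-14* loss with *fust-1* gave 24 calls, 37 without a filter, 87 with DESeq2, 44 with the block, 15 without replicate A and 15 to 50 with 1 library left out (15 without wild type A, 50 without *fust-1* C). Without *fust-1* it gave 15, then 28 without a filter, 139 with DESeq2, 41 with the block, 48 with all 18 libraries and 8 to 40 with 1 library left out (40 without *fust-1* A, 29 without *fust-1* C, 8, 9 and 9 without double mutant A, B and C). Buffered, reversed or synthetic genes among those called were 2, and 4 with the block. The median interaction along the *ceh-14* response was -0.42 and ranged from -0.848 to -0.0851. The causes of these shifts were not tested, apart from the smaller number of libraries where some were left out. Interactions near 0 changed sign for *ceh-14* (0.05; -0.289 to 0.260 with 1 library left out, among them -0.0237, -0.0767, -0.289 and -0.0172; -0.296 without *fust-1* C and double mutant B) and *tdp-1* (-0.04; -0.197 to 0.0909 with 1 library left out, among them 0.0174; 0.0375 without replicate A and 0.0614 without *fust-1* C and double mutant B). The letters were not taken as pairs: 13 of 18 same-letter correlations were over 0.1 (-0.184 to 0.682), and 9 of 12 libraries correlated best with their own letter.

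With 3 libraries per genotype and a median standard error of 0.404, the smallest absolute interaction that was called belonged to *C14A11.9* (-2.0), and genes under 1 CPM rest on few counts. A gene that was not called is not shown to be additive.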
